A study of Mus musculus with 108 samples.

Results

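The cytochrome P450 genes of mouse liver were described by the chromatin state of their transcription start site (TSS), of the 2 kb on each side of it and of the gene body. The members were the autosomal protein-coding genes with a curated RefSeq transcript and a symbol made of Cyp followed by a digit. This gave 99 genes of 20021 autosomal protein-coding genes, in 17 families, of which 9 have 1 member here. Of the 99, 71 lie in 8 clusters, a cluster being 3 or more Cyp genes on a chromosome with gaps of at most 500 kb between neighbours, and 28 lie outside them. The choice used symbols and positions only, and none of the chromatin values.

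Cytochromes P450 are heme-containing monooxygenases that hydroxylate lipophilic substrates with electrons passed on by P450 oxidoreductase or, in mitochondria, by ferredoxin. Members of families 1 to 3 clear drugs, pollutants and steroids, many family 4 members act on fatty acids and eicosanoids, and most of the higher families carry out fixed steps in the synthesis or breakdown of bile acids, steroids, retinoids, vitamin D and sterols. Liver is the main site of the former, and nuclear receptors such as PXR, CAR, PPARα and FXR, together with HNF4α and growth hormone signalling through STAT5b, set the level of many of these genes in hepatocytes.

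ChIP-seq for 4 histone marks (H3K4me3, H3K27me3, H3K27ac and H3K4me1) was performed on livers that had been fixed in formalin and kept in paraffin, from females of the C57BL/6 strain. The groups used here were SD 3m (standard diet, 3 months old, 8 mice and 30 libraries), SD 12m (standard diet, 12 months old, 8 mice and 29 libraries) and CR 12m (12 months old, 30% fewer calories from the age of 3 months, 9 mice and 29 libraries). The SD 6m group was not analysed here. The authors pooled all reads of a mark within a group, and 1 model then gave each 200 bp bin of the genome 1 of 8 states. Each group therefore has 1 segmentation, no difference between groups can be set against the spread between mice, and all values below are descriptions without a test. Series of 3 values stand for SD 3m, SD 12m and CR 12m in this order unless said otherwise. Where a background is given, it is the same measure over all autosomal protein-coding genes or, for bins, over the autosomes.

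States 1 (active TSS) and 2 (flanking TSS) combine H3K4me3 with H3K27ac. States 3 and 4 (active enhancer 1 and 2) carry H3K27ac with H3K4me1, weaker in state 4, and state 5 (poised enhancer) has H3K4me1 without H3K27ac. State 6 is marked by H3K27me3 (Polycomb), state 7 holds weak H3K4me3 and was assigned by the study to repeats and lamina-bound regions, and state 8 has none of the marks (quiescent). States 1 to 4 are called active here, and the active share of a region is the percent of its bins in them. The whole tissue was profiled, so that a larger number of cells with a mark and more of the mark per cell cannot be told apart. The TSS of 6 of 6 hepatocyte markers (Alb, Apoa1, Apob, Tat, Serpina1a and Fgb) was active in each group, whereas that of 0 of 3 lymphocyte markers was.

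At the TSS, the number of active Cyp genes was lowest in SD 3m and highest in CR 12m. With states 1 to 4, their share lay below the background in SD 3m and above it in both groups of 12 months. The TSS bin was active in 50 of 99 Cyp genes in SD 3m (57% of all genes). It was active in 63 in SD 12m (61.5% of all genes) and 72 in CR 12m (61.8% of all genes). Quiescent TSS bins numbered 25, 21 and 19, against 25.5%, 19.4% and 23.5% of all genes. Polycomb TSS bins numbered 5 in each group, against 9.97%, 13.8% and 11.5% of all genes. The number of poised TSS bins was lower at 12 months, with 16, 8 and 2 Cyp genes in state 5, as it was over all genes, with 6.03%, 1.64% and 1.64%.

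The place of the Cyp genes against the background depended on the states counted. Over states 1 to 5, the TSS bin was marked in 66, 71 and 74 Cyp genes (66.7%, 71.7% and 74.7%), against 63%, 63.1% and 63.4% of all genes, so that they were above the background already in SD 3m. Over states 1 to 3, the shares were 43.4%, 46.5% and 62.6% against 51.8%, 48.2% and 48.5%, so that SD 12m was below it. CR 12m was above the background with each choice.

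The active states at Cyp promoters were more often those of enhancers than is usual for a TSS. In SD 3m, 23 Cyp genes had the TSS bin in state 1 or 2 (23.2%, against 46.4% of all genes) and 27 had it in state 3 or 4 (27.3%, against 10.5%). The H3K4me3-bearing states 1 and 2 were present at the TSS of 23 Cyp genes in SD 12m and 28 in CR 12m. Over all genes their share at the TSS was lower at 12 months, with 40.5% and 35.7%. Within 2 kb of the TSS, the Cyp genes with any bin in these states were fewer at 12 months too, with 53, 46 and 44. These were 53.5%, 46.5% and 44.4% of Cyp genes, against 54.6%, 50.7% and 48.1% of all genes. States 3 and 4 held 40 Cyp genes in SD 12m (40.4%, against 20.9%) and 44 in CR 12m (44.4%, against 26.1%). The share of these states was thus higher at 12 months in the background too. Enhancer states at the TSS were not particular to Cyp genes. Among 65 conjugation genes (Ugt, Gst and Sult, described below), states 3 and 4 held 46.2%, 53.8% and 64.6%, more than among Cyp genes in each group. The number of libraries per mark differed between groups, with 8, 7 and 9 for H3K27ac, 8, 6 and 9 for H3K4me1 and 7, 8 and 5 for H3K4me3 in SD 3m, SD 12m and CR 12m. The depth of the merged reads is unknown, and the part of these numbers in the result was not tested.

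**Figure D1:**
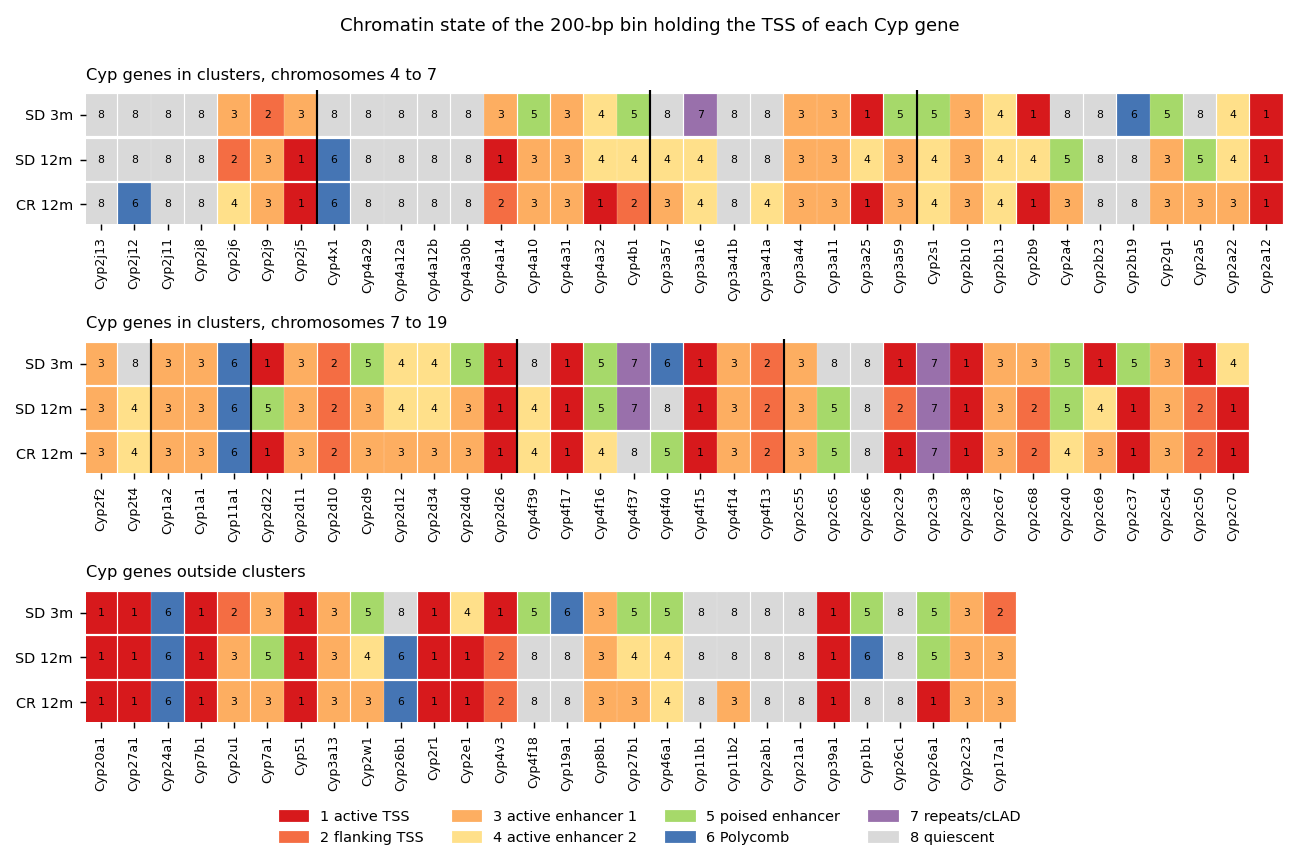
State of the 200 bp bin that holds the TSS of each of the 99 Cyp genes (columns, in genome order, black lines between clusters) in SD 3m, SD 12m and CR 12m (rows), coloured and numbered by state. Active states 1 to 4 fill 50, 63 and 72 of the 99 columns in the 3 rows, and the poised state 5 fills 16, 8 and 2.

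The promoter sequences of the Cyp genes differed from those of most genes in base composition and in the motifs they held. RefSeq promoters of GRCm38.p6 (250 bases before to 50 after the TSS) were at hand for 74 of the 99 Cyp genes and for 15660 of all 20021 genes at the TSS used here. The median Cyp promoter had 3 CpG, against 15 over all promoters, and 81.1% of Cyp promoters had 5 CpG or fewer, against 30.4%. The 13 Cyp promoters with the TSS bin in state 3 or 4 in all 3 groups had 5 CpG or fewer in 13 of 13 cases, whereas of the 12 in state 1 or 2 in all 3 groups, 6 did. Promoters rich in CpG were in several states. Among them were Cyp51 (28 CpG), the lanosterol demethylase of cholesterol synthesis, Cyp2r1 (22 CpG), a vitamin D 25-hydroxylase, and Cyp20a1 (20 CpG), an orphan P450, all in state 1 in each group. Cyp46a1, with the highest number (31 CpG), was in states 5, 4 and 4, Cyp26a1 (26 CpG) in 5, 5 and 1, Cyp2s1 (17 CpG) in 5, 4 and 4 and Cyp1b1 (16 CpG) in 5, 6 and 8.

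Motifs were searched on both strands of the same 300 bases, and no match of one motif overlapped a match of another in the Cyp promoters. The TATA box, searched as TATAAA, was present in 39.2% of Cyp promoters and in 13.4% of all promoters. CAAAGTCCA, the HNF4 motif, was present in 11 Cyp promoters (14.9%), against 0.441% of all promoters. Apart from Cyp8b1, these lie in the Cyp3a cluster (Cyp3a11, Cyp3a16, Cyp3a41a and Cyp3a41b) or the Cyp2c cluster (Cyp2c40, Cyp2c65, Cyp2c67, Cyp2c68, Cyp2c69 and Cyp2c70). Related copies were thus counted as separate promoters. TTGCNNAAT (C/EBP) was present in 5.41% against 2.22%, and TNGCGTG (the xenobiotic response element bound by the Ah receptor) in 1.35% against 6.35%. Among the 35 Cyp promoters active in all 3 groups, TATAAA was present in 51.4%, and among the 20 active in none, in 15%. Over all promoters the relation ran the other way, with 7.31% of those active in all 3 groups and 23.5% of those active in none. A match describes letters only, and the binding of factors was not measured.

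The 250 bases before the TSS of 7 genes are printed because their states recur in the results below, with matches to these motifs in capitals. Cyp8b1 (chr9:121916306-121916555, minus strand) and Cyp2e1 (chr7:140763569-140763818, plus strand) are low-CpG promoters active in each group. Cyp8b1 holds an HNF4 match that starts 67 bases before the TSS and a TATA box that starts 31 bases before it, and the TATA box of Cyp2e1 starts at the same distance of 31 bases.
Cyp8b1: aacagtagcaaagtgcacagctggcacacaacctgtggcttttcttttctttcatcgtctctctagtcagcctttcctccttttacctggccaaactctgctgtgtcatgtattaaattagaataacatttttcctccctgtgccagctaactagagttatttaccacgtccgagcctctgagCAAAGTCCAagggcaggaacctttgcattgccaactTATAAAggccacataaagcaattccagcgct
Cyp2e1: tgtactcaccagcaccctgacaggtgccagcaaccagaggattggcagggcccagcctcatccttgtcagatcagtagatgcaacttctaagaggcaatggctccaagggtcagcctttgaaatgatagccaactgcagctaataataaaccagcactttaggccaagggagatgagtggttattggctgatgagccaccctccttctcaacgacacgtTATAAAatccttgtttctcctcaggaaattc

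Cyp2a4 (chr7:26306942-26307191, plus strand) and Cyp2a5 (chr7:26835089-26835338, plus strand) are close paralogs in the same cluster whose promoters were active in CR 12m only. Their promoters differed at 5 of 299 aligned bases, and both hold a C/EBP match and a TATA box, which starts 28 bases before the TSS in Cyp2a4 and 29 in Cyp2a5.
Cyp2a4: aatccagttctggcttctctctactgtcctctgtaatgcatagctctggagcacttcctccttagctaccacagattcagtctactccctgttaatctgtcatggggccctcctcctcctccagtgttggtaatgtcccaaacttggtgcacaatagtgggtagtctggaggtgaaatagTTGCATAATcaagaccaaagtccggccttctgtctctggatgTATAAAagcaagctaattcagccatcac
Cyp2a5: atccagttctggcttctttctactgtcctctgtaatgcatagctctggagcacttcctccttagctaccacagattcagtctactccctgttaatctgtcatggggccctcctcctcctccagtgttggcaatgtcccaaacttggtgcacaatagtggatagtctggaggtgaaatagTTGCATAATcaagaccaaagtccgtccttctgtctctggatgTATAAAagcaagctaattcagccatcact

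Cyp3a41a (chr5:145720137-145720386, minus strand) and Cyp3a41b (chr5:145584731-145584980, minus strand) are near-identical copies with different labels in CR 12m, and 8 of 300 bases of their promoters did not match without gaps. Both hold TATAAA 122 bases and the HNF4 letters 95 bases before the TSS.
Cyp3a41a: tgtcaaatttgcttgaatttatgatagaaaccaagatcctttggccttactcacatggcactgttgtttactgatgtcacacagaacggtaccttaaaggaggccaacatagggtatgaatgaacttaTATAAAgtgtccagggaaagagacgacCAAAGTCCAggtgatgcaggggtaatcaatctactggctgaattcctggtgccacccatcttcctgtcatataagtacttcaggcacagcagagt
Cyp3a41b: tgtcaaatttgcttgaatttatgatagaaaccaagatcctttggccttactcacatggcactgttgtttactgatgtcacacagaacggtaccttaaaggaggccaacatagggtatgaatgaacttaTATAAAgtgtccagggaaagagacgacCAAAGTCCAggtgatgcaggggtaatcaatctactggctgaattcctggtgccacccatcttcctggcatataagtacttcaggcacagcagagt

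Cyp26a1 (chr19:37697558-37697807, plus strand), also active in CR 12m only, is shown as the contrast, a CpG-rich promoter with 26 CpG and 62.3% G or C in its 300 bases and no match in the 250 bases printed.
Cyp26a1: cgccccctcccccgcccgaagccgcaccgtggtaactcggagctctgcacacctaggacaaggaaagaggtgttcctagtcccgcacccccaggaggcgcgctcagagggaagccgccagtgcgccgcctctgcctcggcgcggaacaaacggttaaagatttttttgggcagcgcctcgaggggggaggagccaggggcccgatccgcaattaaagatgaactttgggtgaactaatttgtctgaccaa

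From SD 3m to SD 12m, the TSS bin of 28 Cyp genes changed class (28.3%, against 22.9% of all genes), the classes being TSS (states 1 and 2), enhancer (3 to 5), Polycomb, state 7 and quiescent. To CR 12m, 31 changed class (31.3%, against 25.9%). Between SD 12m and CR 12m, 13 differed in class (13.1%, against 19.9%). The first comparisons share the SD 3m segmentation.

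The changes had a direction. From SD 3m to SD 12m, 15 Cyp genes entered the active states (15.2%, against 6.12% of all genes) and 2 left them (against 1.63%). From SD 3m to CR 12m, 22 entered (22.2%, against 6.46%) and 0 left (against 1.64%). From SD 12m to CR 12m, 9 entered (9.09%, against 2.7%) and 0 left (against 2.36%). Of the 65 conjugation genes (Ugt, Gst and Sult, described below), 4.62%, 10.8% and 9.23% entered in these comparisons, and 3.08% left in each. Between the diets, the share that entered was thus close to that of the Cyp genes. The TSS bin was active in all 3 groups in 48 Cyp genes and in none of them in 27 (48.5% and 27.3%, against 54.4% and 35.1% of all genes).

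Of the 15 genes active at 12 months on both diets and not at 3 months, 11 had the TSS bin in state 5 in SD 3m (73.3%), 3 in state 8 (20%) and 1 in state 7. Of the 934 genes of the background with this pattern, 65.8% were in state 5 and 20.2% in state 8, close to the Cyp shares. Of the 16 Cyp genes in state 5 in SD 3m, 11 were active in SD 12m and 14 in CR 12m (68.8% and 87.5%), against 64.5% and 61.8% of the 1208 genes of the background in that state. Of the 25 Cyp genes quiescent in SD 3m, 3 were active in SD 12m and 7 in CR 12m (12% and 28%), against 5.12% and 6.79% of 5098 genes. The share of poised TSS that became active in SD 12m was thus close to that of all genes, and the Cyp genes lay above the background mainly in CR 12m and among quiescent TSS.

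Among these 15 genes were Cyp4a10, a fatty acid hydroxylase induced through PPARα, with TSS states 5, 3 and 3 in SD 3m, SD 12m and CR 12m, and Cyp4b1 of the same cluster, with 5, 4 and 2. Cyp2c37, which forms hydroxylated arachidonic acid, was in states 5, 1 and 1 and was the single gene of the 15 in state 1 in SD 12m. Cyp2d9, a testosterone hydroxylase with male-predominant expression, was in states 5, 3 and 3 in these females. Cyp27b1, the vitamin D 1α-hydroxylase best known from kidney, was in states 5, 4 and 3, and Cyp46a1, the cholesterol 24-hydroxylase best known from brain, in states 5, 4 and 4. Cyp3a16 moved from state 7 to state 4 in both groups, and Cyp3a57, Cyp2t4 and Cyp4f39 were quiescent in SD 3m and in state 3 or 4 afterwards. The other 5 were Cyp2d40, Cyp2g1, Cyp2s1, Cyp2w1 and Cyp3a59, each in state 5 in SD 3m.

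The 7 genes active in CR 12m only were Cyp2a4, Cyp2a5, Cyp3a41a, Cyp2c40, Cyp4f16, Cyp11b2 and Cyp26a1, whereas 0 Cyp genes were active in SD 12m only. Over all genes, 360 (1.798%) were active in CR 12m only and 292 in SD 12m only. Of the 65 conjugation genes, 5 were active in CR 12m only (7.69%, against 7.07% of Cyp genes) and 1 in SD 12m only. The steroid 15α-hydroxylase Cyp2a4 and the coumarin 7-hydroxylase Cyp2a5 both had TSS states 8, 5 and 3. The active share within 2 kb of the TSS was 14.3%, 9.52% and 100% for Cyp2a4 and 0%, 0% and 100% for Cyp2a5. Of the 50-base words within 2 kb of their TSS, 52.0% and 51.6% occur once in the genome, so reads from one copy could be placed at part of each window only.

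Cyp26a1, which degrades retinoic acid and is induced by it, was poised in both groups on standard diet and in state 1 in CR 12m. Its active share within 2 kb was 0%, 9.52% and 100% in SD 3m, SD 12m and CR 12m, and 19 of the 21 bins of that window were in state 1 or 2 in CR 12m and 0 in the others. The neighbour Cyp26c1, a related retinoic acid hydroxylase, kept a quiescent TSS bin in each group. Cyp11b2, the aldosterone synthase of the adrenal cortex, was quiescent on standard diet and in state 3 in CR 12m, with 0%, 19.05% and 100% of the window active, while the adjacent Cyp11b1 was quiescent in each group. Of the 50-base words within 2 kb of the TSS, 99.9% were unique for Cyp26a1 and 87.7% for Cyp11b2 (chr15:74850618-74856231, GRCm38.p6), above the 80% used here to set apart genes with near-identical copies.

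Cyp2c40 and Cyp4f16 were poised at the TSS on standard diet and in state 4 in CR 12m. For Cyp2c40, an arachidonic acid hydroxylase, 47.6%, 66.7% and 100% of the window was active, and 17.8%, 10.4% and 78.7% of the gene body. For Cyp4f16 the window was 14.3%, 19.05% and 95.2% active, while its gene body was least active in CR 12m, with 23.4%, 41.6% and 16.9%.

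Cyp2d22 and Cyp7a1 were the genes that left the active states in SD 12m, and both were in state 5 there and active again in CR 12m. For Cyp7a1, the rate-limiting enzyme of bile acid synthesis from cholesterol, the TSS states were 3, 5 and 3, and the active share within 2 kb was 100%, 81.0% and 100% in SD 3m, SD 12m and CR 12m. Its gene body was 86.3%, 96.1% and 100% active, so that the poised label covered a small region at the TSS. For Cyp2d22 the states were 1, 5 and 1 and the window was 100%, 90.5% and 100% active.

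Between the TSS class and the enhancer class, which includes the poised state, 7 genes went from the former to the latter from SD 3m to SD 12m (Cyp17a1, Cyp2b9, Cyp2c69, Cyp2d22, Cyp2j9, Cyp2u1 and Cyp3a25) and 7 the opposite way (Cyp2c37, Cyp2c68, Cyp2c70, Cyp2e1, Cyp2j5, Cyp2j6 and Cyp4a14). From SD 3m to CR 12m, 4 went from TSS to enhancer (Cyp17a1, Cyp2c69, Cyp2j9 and Cyp2u1) and 9 from enhancer to TSS (Cyp26a1, Cyp2c37, Cyp2c68, Cyp2c70, Cyp2e1, Cyp2j5, Cyp4a14, Cyp4a32 and Cyp4b1). Such switches were not counted over all genes, so their balance has no background and is not read as particular to Cyp genes. Cyp2e1, the ethanol-inducible P450 of pericentral hepatocytes, was in state 4 in SD 3m and state 1 in both groups of 12 months. Cyp4a14, a second PPARα-responsive fatty acid hydroxylase, was in states 3, 1 and 2.

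The TSS bin of 9 Cyp genes was in state 6 in at least 1 group. Cyp11a1, which starts steroid synthesis in adrenal and gonad, and Cyp24a1, the vitamin D 24-hydroxylase, were in state 6 in each group. Cyp26b1 and Cyp4x1 were quiescent in SD 3m and in state 6 in SD 12m and CR 12m, and Cyp2j12 was in state 6 in CR 12m only. Conversely Cyp19a1, the aromatase of ovary and brain, and Cyp2b19, known from skin, were in state 6 in SD 3m and quiescent at 12 months, and Cyp4f40 was in states 6, 8 and 5. Cyp1b1 went through states 5, 6 and 8, Cyp4f18 from state 5 to 8, Cyp4f37 from 7 to 8 in CR 12m, and Cyp2c65 from 8 to 5. A further 14 Cyp genes were quiescent in all 3 groups. Genes in state 6 in at least 1 group, or quiescent in all 3, were not counted over all genes.

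By role, the bile acid enzymes were active in nearly every case. The TSS bin was active in 5, 4 and 5 of 5 of them, the single exception being Cyp7a1. Cyp8b1, the sterol 12α-hydroxylase that sets the share of cholic acid, was in state 3 in each group and 100% active in window and gene body. Cyp27a1, the mitochondrial sterol 27-hydroxylase, and Cyp7b1 and Cyp39a1, the oxysterol 7α-hydroxylases, were in state 1 in each group. Of 6 steroid hormone enzymes, 1, 1 and 2 were active, namely Cyp17a1 (states 2, 3 and 3), the 17α-hydroxylase, and Cyp11b2 in CR 12m, whereas Cyp21a1, the steroid 21-hydroxylase, was quiescent throughout.

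Of 6 retinoid and vitamin D enzymes, 1 was active in SD 3m (Cyp2r1), 2 in SD 12m (with Cyp27b1) and 3 in CR 12m (with Cyp26a1). The receptor-induced genes were active in 5, 6 and 6 of 7 cases. Cyp1a1 and Cyp1a2, the Ah receptor targets, Cyp2b10, the CAR target, and Cyp3a11, the PXR target, were in state 3 in each group. The gene of the 7 that was active in 0 groups was Cyp1b1, an Ah receptor target expressed mainly outside the liver. The TSS of the periportal Cyp2f2 was in state 3 in each group, and the pericentral genes Cyp2e1, Cyp1a2, Cyp7a1 and Cyp27a1 were active in 4, 3 and 4 of 4 cases.

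Of 9 genes with female-predominant expression in mouse liver, 5, 6 and 8 were active. Cyp2b9 (states 1, 4 and 1), Cyp2b13 (4, 4 and 4), Cyp2c69 (1, 4 and 3), Cyp3a44 (3, 3 and 3) and Cyp17a1 were active in each group, Cyp3a16 in both groups of 12 months, and Cyp2a4 and Cyp3a41a in CR 12m. Of 5 male-predominant genes, 2, 3 and 3 were active. Cyp7b1 and Cyp2u1 were active in each group and Cyp2d9 at 12 months, while Cyp4a12a and Cyp4a12b, the androgen-dependent arachidonic acid hydroxylases, were quiescent throughout. Only 34.2% and 38.8% of the words around the TSS of the latter pair are unique. Unique words made up less than 80% in 7 of the 9 female-predominant genes, so that their labels rest on fewer placeable reads than those of most genes.

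The order of the groups held within 2 kb of the TSS. The pooled active share of the 2079 bins was 56.3%, 65.3% and 72.8% in SD 3m, SD 12m and CR 12m, against 54.8%, 60.5% and 61.0% over all genes. The share was higher in CR 12m than in SD 3m in 41 of 99 genes, lower in 2 and equal in 56, and over all genes it was higher in 4538, lower in 1091 and equal in 14392. Against SD 3m, the SD 12m share was higher in 34 Cyp genes, lower in 11 and equal in 54. Beside Cyp26a1, Cyp2a5 and Cyp11b2, the largest differences upward to CR 12m were those of Cyp2s1, Cyp3a41a and Cyp4f39, each from 0% to 100%. Those to SD 12m were Cyp27b1, Cyp2s1 and Cyp4f39, each from 0% to 100%, Cyp4b1, from 19.05% to 100%, and Cyp3a57, from 23.8% to 100%. The lowest value relative to SD 3m was that of Cyp2c65, with 47.6%, 9.52% and 0%, followed in CR 12m by Cyp2j9, with 100%, 100% and 76.2%.

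In the gene bodies the CR 12m group stood further apart. The pooled active share of the 13776 gene-body bins was 29.7%, 34.6% and 49.2% in SD 3m, SD 12m and CR 12m, against 30.4%, 33.7% and 35.3% over all genes. The median Cyp gene was 26.8%, 35.9% and 70.2% active, and the median of all genes 28.5%, 44.0% and 50%. The gene body was at least 20 percentage points more active in SD 12m than in SD 3m in 20 Cyp genes (20.2%, against 17.6% of all genes). From SD 3m to CR 12m this held for 48 (48.5%, against 21.3%), and from SD 12m to CR 12m for 30 (30.3%, against 7.68%). It was at least 20 points less active in 4 (against 3.1%), 1 (against 2.32%) and 2 (against 3.18%) Cyp genes in the same order of comparisons. The counts of higher bodies depended on the states counted. The 20, 48 and 30 genes became 12, 21 and 12 with states 1 to 5, and 12, 31 and 18 with states 1 to 3. Shares over all genes were not computed with these other state sets, so these counts have no background. The gene body was at least 90% active in 14 Cyp genes in SD 3m (20% of all genes), in 30 in SD 12m (33.1%) and in 45 in CR 12m (38.7%).

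**Figure D2:**
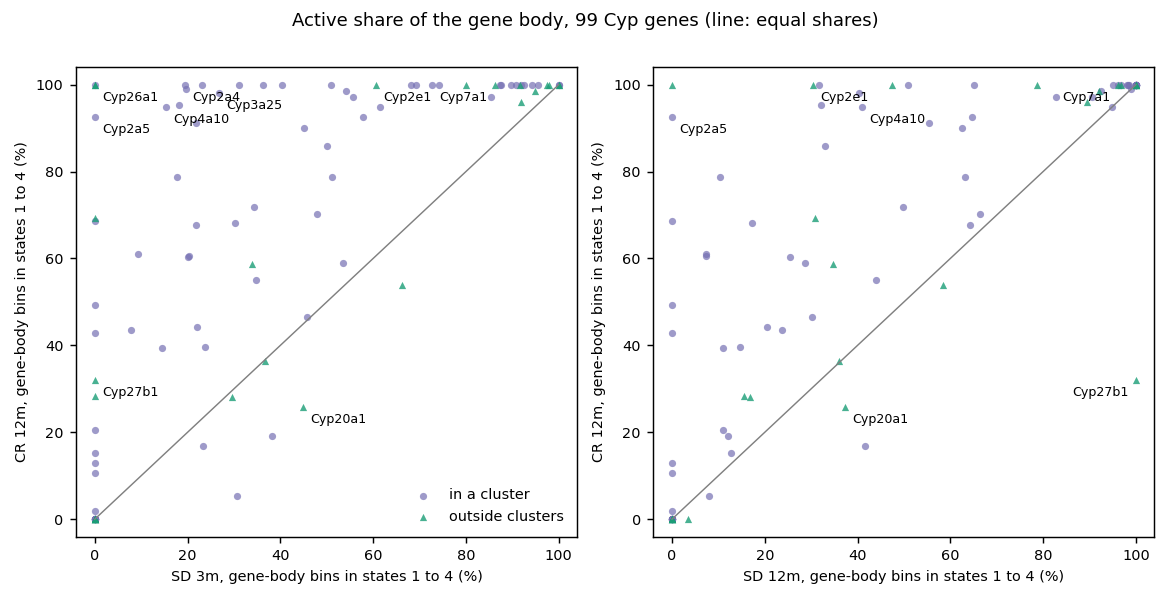
Active share of the gene body of each of the 99 Cyp genes in CR 12m (vertical axis, percent of bins in states 1 to 4) against SD 3m (left) and SD 12m (right), circles for genes in a cluster and triangles for the others. Most points lie on or above the line of equal shares, 48 of them at least 20 points above SD 3m and 30 at least 20 points above SD 12m.

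The genes given here for the gene body were chosen after their values were seen. The gene body of Cyp3a25 was 26.8%, 40.2% and 98.2% active, although its window within 2 kb was 100% active in each group. Cyp2e1 had 60.7%, 30.4% and 100%, and 39.3%, 60.7% and 0% of its body was poised. For Cyp4a10 the shares were 15.4%, 41.0% and 94.9%, and for Cyp3a59 18.1%, 32.2% and 95.3%. Cyp2a4 had 19.5%, 31.7% and 100%, and Cyp2a5 0%, 0% and 92.7%, and 68.3%, 100% and 7.32% of the body of Cyp2a5 was poised. The poised label covered 56.7%, 55.5% and 1.83% of the body of Cyp3a25 and 48.7%, 39.7% and 5.13% of that of Cyp4a10, while the body of Cyp3a59 was 21.1%, 36.8% and 0% poised and 51.5%, 31.0% and 4.68% quiescent.

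Pooled over the Cyp gene bodies, state 5 covered 13.8%, 15.6% and 5.97% of bins, state 3 covered 13.6%, 18.8% and 27.7%, and state 8 covered 40.5%, 41.3% and 39.0%. Over all gene bodies, state 5 covered 9.43%, 5.51% and 4.76% and state 8 covered 52.3%, 44.6% and 49.2%. The order of the groups did not hold gene by gene, since the body share of 25 of the 99 Cyp genes was lower in at least 1 step from SD 3m to SD 12m to CR 12m, and that of 30 was higher in both steps. Cyp27b1 had 0%, 100% and 32.0% of its body active, and Cyp4f37 had 30.7%, 8% and 5.33%. The body of Cyp20a1 was less active at 12 months, with 44.9%, 37.3% and 25.8%.

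The gap between CR 12m and the rest was also present among genes whose TSS was active in all 3 groups. In the 48 Cyp genes of this kind, 47.4%, 49.9% and 65.9% of gene-body bins were active, against 55.9%, 59.9% and 63.0% in the 10899 genes of the background. Along the gene, the mean active share of the first of 10 equal segments was 89.7%, 93.0% and 97.1%. That of the last segment was 52.2%, 59.2% and 73.8%, against 54.8%, 66.0% and 71.1% in the 10667 background genes with at least 10 bins. Around the TSS, the bin 5 kb downstream was active in 39.4%, 48.5% and 70.7% of the 99 Cyp genes, against 43.7%, 53.2% and 55.2% of all genes. The Cyp genes thus lay below the background at this distance in SD 3m and SD 12m and above it in CR 12m, but at 4 kb downstream SD 12m was above it too, with 58.6% against 55.1%. The bin 5 kb upstream was active in 56.6%, 63.6% and 70.7% of Cyp genes, against 43.01%, 52.6% and 52.8%, above the background in each group. The median Cyp gene spans 22495 bp, against 16858 bp over all genes.

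**Figure D3:**
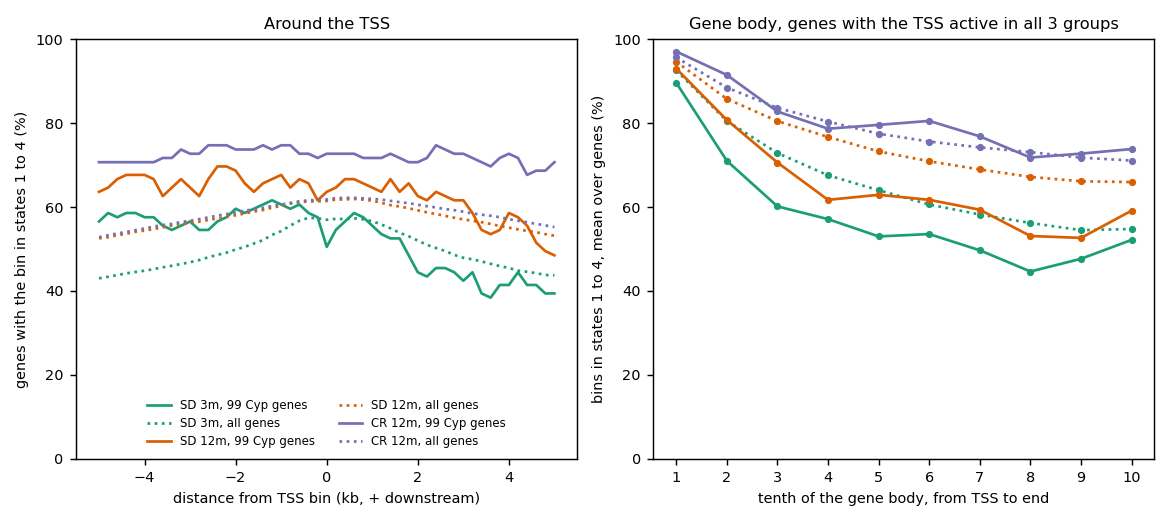
Left, percent of genes with a bin in states 1 to 4 by distance from the TSS bin in kb, for the 99 Cyp genes (solid) and all genes (dotted) in SD 3m, SD 12m and CR 12m. Right, mean active share of each of 10 equal segments of the gene body for genes with an active TSS in all 3 groups. In the last segment the solid lines stand at 52.2%, 59.2% and 73.8%, and CR 12m is the group in which the Cyp line reaches the background.

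Some hepatocyte genes that are not Cyp genes also had more active bodies in CR 12m than in SD 12m, namely 3 of the 6 markers. The gene body of Apob was 23.9%, 12.7% and 61.4% active and that of Serpina1a 45.3%, 28.3% and 100%, the same order of groups as in Cyp2e1. That of Fgb was 61.5%, 82.1% and 100% active, that of Alb 43.8%, 100% and 100%, that of Tat 91.7%, 100% and 100%, and that of Apoa1 100% in each group. Of the 65 genes of conjugation (Ugt, Gst and Sult, the enzymes that act after the P450), the TSS bin was active in 48, 49 and 53, and 56.7%, 60.5% and 72.7% of their gene-body bins were active. Their body was at least 20 points more active in CR 12m than in SD 12m in 7 of 65 genes (10.8%), against the 30.3% of Cyp genes. These counts are not on equal terms. The median conjugation gene body was already 87.9% active in SD 12m, against 35.9% for Cyp genes, which left less room for a rise of 20 points. Higher body shares in CR 12m were thus present outside the Cyp genes.

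The electron donors and regulators of the P450 had an active TSS already in SD 3m, so that none of them could enter the active states. The TSS bin was active in each group for 6 of 6 donors, among them Por, the oxidoreductase of microsomal P450, and Fdx1 and Fdxr, the mitochondrial chain. It was likewise active for 14 of 14 regulators, among them the receptor genes Ahr, Nr1i2 (PXR), Nr1i3 (CAR), Ppara and Nr1h4 (FXR) and the hepatocyte factors Hnf4a and Cebpa. The gene body of Por was 82.3%, 94.8% and 100% active.

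Markers of other cells moved between groups in a few cases. The stellate marker Dcn was in state 1 in SD 3m and in state 6 in both groups of 12 months, and stellate markers were active in 1, 0 and 0 of 3 cases. Endothelial markers were active in 2, 1 and 3 of 3 cases, cholangiocyte markers in 1, 2 and 2 of 3, and macrophage markers in 1, 1 and 1 of 3, with Clec4f in state 6 in each group. Of 4 genes not expected in liver, 0, 0 and 1 were active, the last being Gfap in CR 12m. The part of cell composition in the values of the Cyp genes was not tested.

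Over whole clusters, from the start of the first gene to the end of the last, 29.4%, 37.7% and 50.6% of bins were active, against 18.2%, 21.2% and 21.7% of the autosomes. In 7 of the 8 clusters the share was highest in CR 12m and lowest in SD 3m, and in the Cyp2j cluster it was lowest in SD 12m. The Cyp2d cluster on chromosome 15, 424 kb with 8 genes, was the most active, with 68.8%, 83.1% and 88.3%, and its longest unbroken active stretch was 29.4 kb, 62.6 kb and 100.0 kb. The Cyp2j cluster on chromosome 4 was the least, with 8.98%, 8.24% and 12.1%. In it, the TSS of Cyp2j13, Cyp2j11 and Cyp2j8 were quiescent throughout while those of Cyp2j5, Cyp2j6 and Cyp2j9 were active.

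The gap between SD 12m and CR 12m was largest in 4 of the 8 clusters. The Cyp4a/Cyp4b/Cyp4x cluster on chromosome 4 was 16.2%, 17.4% and 37.7% active, and the Cyp2c cluster on chromosome 19 was 27.5%, 33.0% and 51.7% active. The Cyp3a cluster on chromosome 5 had 25.8%, 38.3% and 55.1%, and the Cyp2a/Cyp2b/Cyp2f/Cyp2g/Cyp2s/Cyp2t cluster on chromosome 7 had 33.2%, 44.9% and 60.9%. The 2 remaining clusters had their gap between SD 3m and SD 12m, with 39.95%, 48.9% and 50.7% in Cyp11a/Cyp1a on chromosome 9 and 27.6%, 40.3% and 43.4% in Cyp4f on chromosome 17. In the Cyp4a cluster, the active side held Cyp4a14, Cyp4a10, Cyp4a31, Cyp4a32 and Cyp4b1, and Cyp4a29, Cyp4a12a, Cyp4a12b and Cyp4a30b at its other side were quiescent at the TSS throughout.

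**Figure D4:**
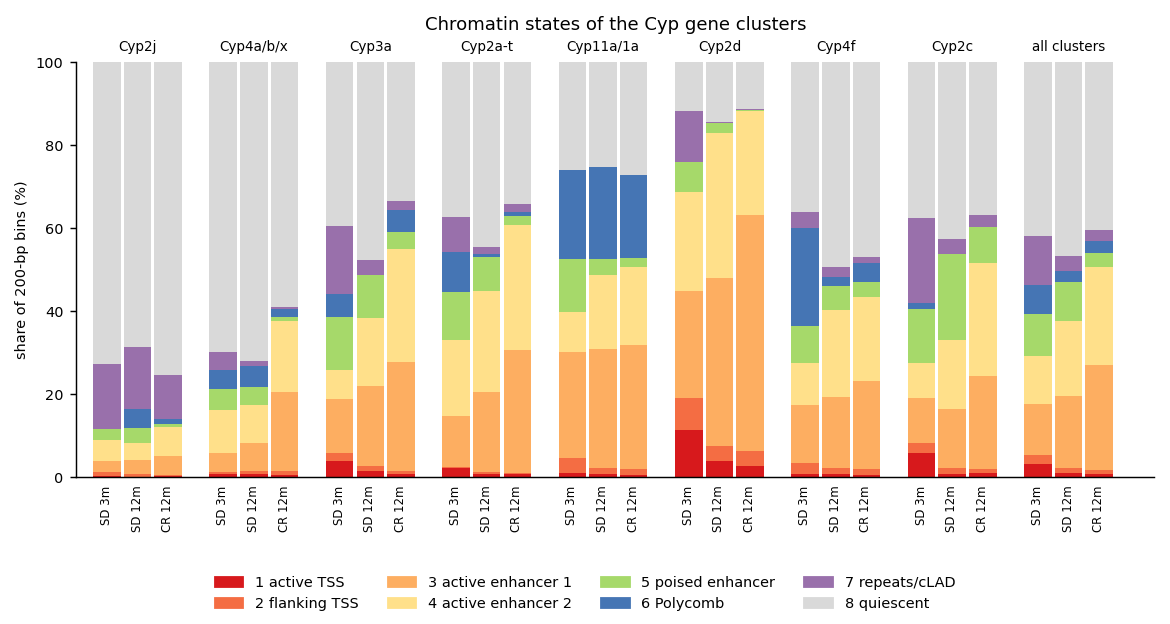
Share of 200 bp bins in each of the 8 states (stacked, percent) in the 8 Cyp clusters and in all of them together, for SD 3m, SD 12m and CR 12m. Over all clusters the active states 1 to 4 reach 29.4%, 37.7% and 50.6%, and state 7 takes 11.8%, 3.64% and 2.56%.

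Over all clusters together, the gap between diets was larger inside than beside them. In the 200 kb on each side, 42.1%, 52.7% and 55.9% of bins were active. The flanks, although more active, thus differed by less between SD 12m and CR 12m than the clusters did. Cyp11a/Cyp1a was the exception, with flanks 43.75% and 50.75% active in SD 12m and CR 12m, against 48.9% and 50.7% inside. Flanks of the chromosome 7 cluster were already 84.7% active in SD 12m, which left less room for a rise. Of the bins quiescent in SD 3m, 9.39% were active in SD 12m and 23.4% in CR 12m inside the clusters, against 2.43% and 2.91% on the autosomes. Of the bins active in SD 3m, 9.33% and 3.89% were no longer active, against 11.1% and 10.01% on the autosomes. The bins poised in SD 3m inside the clusters were active in 40.4% of cases in SD 12m and in 76.1% in CR 12m, against 51.2% and 52.2% on the autosomes.

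State 7 went the opposite way in the Cyp clusters to the genome. It covered 11.8%, 3.64% and 2.56% of cluster bins, whereas on the autosomes it covered 1.92%, 11.9% and 4.35%. In SD 3m it made up 20.6% of the Cyp2c, 16.2% of the Cyp3a, 15.8% of the Cyp2j and 12.2% of the Cyp2d cluster, and in SD 12m 3.73%, 3.59%, 15.1% and 0.377%, so that the Cyp2j cluster kept most of its share. The SD 3m clusters held 3376 bins of state 7, of which 19.9% kept it in SD 12m, 59.6% were quiescent and 15.8% active. On the autosomes, 72.6% of such bins were in state 7 in SD 12m and 2.13% active. In gene bodies, state 7 covered 8.64%, 2.29% and 1.92% of bins for Cyp genes and 1.43%, 5.36% and 2.21% for all genes. For the conjugation genes it covered 2.71%, 2.23% and 1.53%, so that a lower share at 12 months was present there too.

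State 1, with strong H3K4me3, was also wider in SD 3m, mostly away from promoters. It took 3.34%, 1.12% and 0.899% of cluster bins, against 0.429%, 0.378% and 0.311% of the autosomes. It covered 191.8 kb of the clusters in SD 3m, 64.4 kb in SD 12m and 51.6 kb in CR 12m, and 83.3%, 64.6% and 49.6% of it lay more than 2 kb from any TSS. Of the cluster bins in state 1 in SD 3m, 30.2% had state 1 or 2 in SD 12m, 50.5% state 4 and 11.1% state 3. Fewer than 50% of words were unique in 20.9% of the state 7 cluster bins of SD 3m. The share was 20.9% of all cluster bins and 6.89% of those in state 1. Unique words do not measure the repeat classes, and the part of repeats in state 7 was not tested. For H3K4me3, the mark of states 1, 2 and 7, 7 libraries were merged, 8 and 5 in SD 3m, SD 12m and CR 12m.

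The map of the Cyp3a cluster (chr5:145345269-146113285, GRCm38.p6) shows these changes side by side over 768 kb with 8 genes and no other protein-coding gene. The body of Cyp3a11, the main PXR-responsive Cyp3a gene, was 87.4%, 98.4% and 100% active. In the 97.3 kb between Cyp3a11 and Cyp3a25, state 7 covered 43.4%, 5.34% and 5.55% and the active states 36.1%, 43.7% and 56.2%. State 4 covered 27.5%, 60.3% and 83.3% of the 48.7 kb between Cyp3a44 and Cyp3a11. It covered 2.97%, 18.6% and 45.1% of the 53.8 kb between Cyp3a41a and Cyp3a44.

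These intervals hold no protein-coding gene, so the wider active label in the CR 12m cluster lay between the Cyp genes as well as in them. Non-coding genes were not looked for. At the other end, the body of Cyp3a57 was 0%, 10.9% and 20.5% active and 59.0%, 0% and 3.49% Polycomb, and that of Cyp3a16 was 7.74%, 23.8% and 43.5% active. The body of Cyp3a41b was 0%, 0% and 13.0% active. In the 88.9 kb between Cyp3a16 and Cyp3a41b, the active share was highest in SD 12m, with 0%, 10.2% and 5.71%.

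**Figure D5:**
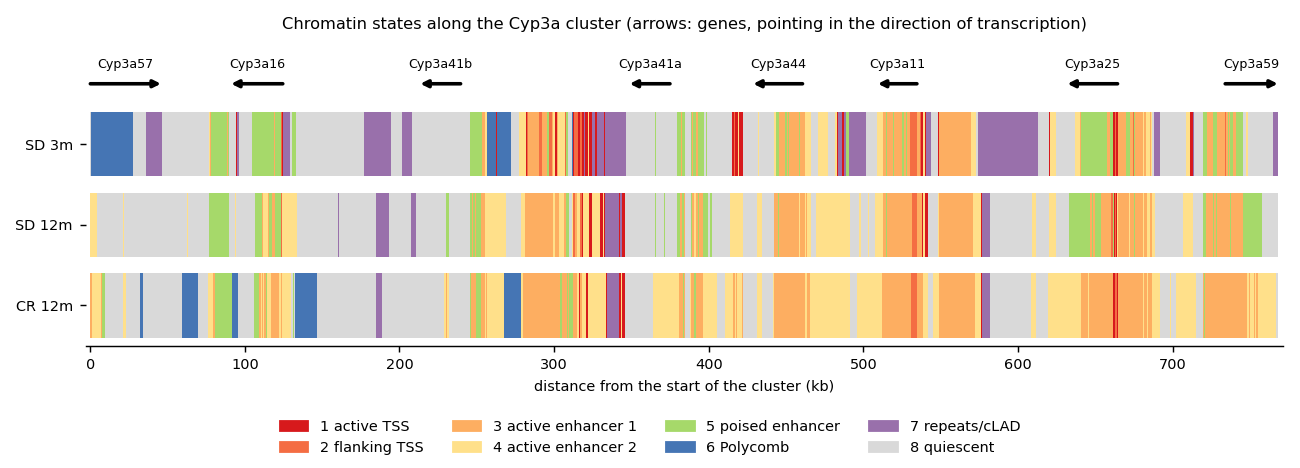
States of the 200 bp bins along the Cyp3a cluster, by distance in kb from its start, in SD 3m, SD 12m and CR 12m, with the 8 genes as arrows. The active share of the cluster is 25.8%, 38.3% and 55.1% from the top row to the bottom, and state 7 covers 16.2%, 3.59% and 2.16%.

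Near-identical copies limit what can be read from these clusters, since reads that fit several places equally well were removed. Of the cluster bins, 20.8% had fewer than 50% of their 50-base words unique, and 70.1%, 72.8% and 63.1% of these were in state 8, against 34.4%, 39.9% and 34.5% of the others. In the cluster bins with 50% or more unique words, 34.9%, 44.0% and 56.0% were active, the same order of groups. Of the 19 Cyp genes with fewer than 80% unique words within 2 kb of the TSS, 6, 8 and 12 were active, and of the other 80, 44, 55 and 60. Cyp3a41a and Cyp3a41b, with 25.3% and 25.7% unique words, were in states 8, 8 and 4 and in states 8, 8 and 8, and reads from one copy cannot be told from the other over most of both genes. For Cyp2c39 the longest transcript overlaps Cyp2c38, which runs the opposite way, and its TSS bin was in state 7 in each group.

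Cyp pseudogenes were counted too, without a background and without a comparison to the genes beside them. Of 34 Cyp pseudogenes, the 5′ bin was active in 12, 17 and 22 in SD 3m, SD 12m and CR 12m, and the median active share of their span was 0.439%, 57.0% and 95.2%.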

How the data were processed

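ChIP-seq of 4 histone marks was performed by the study on paraffin-embedded livers of 31 mice (108 libraries). The authors aligned 50 bp single reads to mm10 with bwa 0.6.2-r126, handled them with samtools 0.1.18 (versions per the submitters' processing notes), removed duplicates and reads placed with low mapping quality, merged the reads of each group and mark, and segmented the genome with ChromHMM. The deposited values are state labels, 1 of 8 per 200 bp bin, with no signal or read counts, so depth and mouse-to-mouse spread are unknown.

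The 3 segmentations analysed (13168874 bins each, 12313718 autosomal) were read as deposited. Bin ends matched GRCm38.p6 on 20 of 20 chromosomes. Each gene was given the TSS and body of its longest curated RefSeq transcript by genomic span. For 50-base words, the share that occurs once in the reference was counted on both strands. Motifs were searched in the RefSeq promoters. Differences are descriptions with no test, since each group has 1 segmentation. Scripts were tested on simulated segmentations and used Python 3.11.15, numpy 2.4.6, pandas 2.3.3, numba 0.67.0 and matplotlib 3.10.9.

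The members and lists were chosen with earlier results of these data known. Genes named are those of the role lists, those whose TSS class changed from SD 3m, each cluster's genes with the highest and lowest active share near the TSS in SD 3m, and the 5 largest changes of that share in each direction. Others were named after their values were seen. SD 6m was not analysed here, and 1 regulator and 1 motif of the lists are not reported here.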

Additional observations from a re-analysis of the deposited data

How the results depend on the processing

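The order SD 3m, SD 12m, CR 12m, from lowest to highest, held in each alternative run for the number of Cyp genes with an active TSS, the active share within 2 kb, that of the gene bodies and that of the clusters. Of 111 alternative values, 89 stayed within the 95% Wilson interval over the number of genes (shares) or within 1.5 times the reported count, 22 lay outside. The interval served as a fixed limit only and measures no spread between mice, since many of the genes are related and each group has 1 segmentation. Runs on part of the genes reuse mostly the same genes. The side of the background on which the share of active Cyp TSS lay turned in SD 12m with states 1 to 3 (46.5%, against 48.2% of all genes) and in SD 3m with states 1 to 5 (66.7%, against 63%). With all 8 states apart, 48 Cyp TSS bins differed between SD 3m and CR 12m (48.5%, against 35.5% of all genes). Between SD 12m and CR 12m, 27 differed (27.3%, against 27.1%). That share was close to the background, whereas by class the Cyp share was below it. With poised bins counted as active (states 1 to 5), 68.9% of bins within 2 kb in SD 3m were active, and of gene-body bins 43.5% in SD 3m and 50.2% in SD 12m. With state 4 left out (states 1 to 3), the share within 2 kb came to 50.6% for SD 12m and 61.6% for CR 12m, and that of gene bodies 19.98%, 22.1% and 31.1%. Averaged over genes, the body share came to 45.99% for SD 12m and 61.2% for CR 12m.

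Counts of Cyp genes with a higher body share depended most on the settings, all chosen after seeing the data. From SD 3m to SD 12m, 35 genes were higher by 10 points and 8 by 40 points, and at 20 points 12 with states 1 to 5 and 12 with states 1 to 3. From SD 3m to CR 12m, 27 were higher by 40 points, 21 at 20 points with states 1 to 5 and 31 with states 1 to 3. From SD 12m to CR 12m the numbers were 17, 12 and 18. Over all genes, 7.98%, 10.6% and 2.6% were higher by 40 points in these comparisons, and 26.2% by 10 points from SD 3m to SD 12m. With states 1 to 5 or 1 to 3, the share over all genes was not computed. The smaller counts with states 1 to 5 follow from the alternative itself, in which a change from poised to active is no change. No paired analysis was possible because each group has 1 merged segmentation and no result comes from a test, and for the same reason no replicate could be left out.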
